A study of Homo sapiens with 12 samples.

Results

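Hypoxia-inducible genes and glycolysis genes were followed across 12 messenger RNA libraries of HEK293T, a human embryonic kidney cell line. The 37 genes, of 24395 features in the gene table, were taken by name as known genes of the pathway. They comprise 6 regulators of hypoxia-inducible factor (HIF), 13 HIF targets outside glycolysis and 18 genes of glucose uptake and glycolysis. A filter on low counts kept 36 of the 37 among 14613 genes tested, and the gene left out was CA9.

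All cells were transiently transfected with guide RNAs for 4 sites at IL1RN and with 1 of 4 proteins. The proteins were dCas9-p300 core, which carries the catalytic core of the acetyltransferase p300; dCas9-VP64, which carries a viral activation domain; dCas9-p300 D1399Y, whose p300 core carries a change that abolishes catalysis; and dCas9 alone, which binds DNA without cutting it. Each group held 3 libraries of this 1 cell line. The labels name no change of oxygen or glucose supply.

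HIF is a dimer of an oxygen-sensitive alpha subunit, HIF1A or EPAS1, with ARNT. In normal oxygen the EGLN prolyl hydroxylases mark the alpha subunit, and the VHL ubiquitin ligase then sends it for destruction. The stable dimer binds a short DNA element and recruits the coactivators p300 and CBP through a domain that lies outside the catalytic core of p300. Its targets include the enzymes that turn glucose into lactate. The comparisons asked whether RNA of these genes differed between the proteins, and whether the glycolytic targets differed from the other targets.

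The core letters of the HIF element are ACGTG or GCGTG. Promoter windows of 300 bases, from 250 before to 50 after a start site, were at hand in RefSeq (GRCh38.p14) for 33 of the 37 genes, with 59 windows in all; BNIP3L, NDRG1, SLC2A3 and VHL were not searched. On either strand, at least 1 of the 2 motifs occurred in 12 of 15 windows of the other targets (80.0%), in 24 of 38 windows of the glycolysis genes (63.2%) and in 3 of 6 windows of the regulators, against 48.4% of all 35116 windows. Some windows of a gene overlap and share sequence, and a CACGTG holds ACGTG on both strands. The following 6 windows are shown, with each motif in capitals, since P4HA1, ANKRD37, LDHA, SLC2A1 and PFKFB4 had their highest level in the same library and CA9 was nearly undetected. The LDHA window is the first of 2, and the second held 1 GCGTG. The genes shown are a choice from the 24 that peaked in that library. ARNT, EGLN3 and P4HA2 also peaked there, and their windows held no match.
P4HA1 (chr10:73096817-73097116, minus strand): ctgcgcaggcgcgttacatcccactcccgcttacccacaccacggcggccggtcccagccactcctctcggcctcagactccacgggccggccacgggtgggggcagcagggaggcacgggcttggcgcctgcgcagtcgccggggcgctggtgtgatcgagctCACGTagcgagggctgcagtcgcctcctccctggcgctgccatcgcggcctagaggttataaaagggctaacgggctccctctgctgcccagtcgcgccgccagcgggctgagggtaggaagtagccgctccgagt
ANKRD37 (chr4:185396591-185396890, plus strand): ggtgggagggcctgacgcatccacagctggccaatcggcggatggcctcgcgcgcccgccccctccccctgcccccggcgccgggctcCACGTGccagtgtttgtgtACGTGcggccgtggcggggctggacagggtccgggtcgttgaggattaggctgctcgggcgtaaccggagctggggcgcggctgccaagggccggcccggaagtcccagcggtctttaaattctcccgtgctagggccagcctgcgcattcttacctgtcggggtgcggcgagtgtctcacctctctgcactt
CA9 (chr9:35673678-35673977, plus strand): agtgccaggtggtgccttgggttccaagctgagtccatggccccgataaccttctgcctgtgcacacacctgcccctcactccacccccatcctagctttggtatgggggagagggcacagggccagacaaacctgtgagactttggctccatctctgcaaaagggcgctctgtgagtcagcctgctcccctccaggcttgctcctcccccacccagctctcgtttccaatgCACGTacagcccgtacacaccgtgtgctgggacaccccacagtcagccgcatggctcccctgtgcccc
LDHA (chr11:18394313-18394612, plus strand): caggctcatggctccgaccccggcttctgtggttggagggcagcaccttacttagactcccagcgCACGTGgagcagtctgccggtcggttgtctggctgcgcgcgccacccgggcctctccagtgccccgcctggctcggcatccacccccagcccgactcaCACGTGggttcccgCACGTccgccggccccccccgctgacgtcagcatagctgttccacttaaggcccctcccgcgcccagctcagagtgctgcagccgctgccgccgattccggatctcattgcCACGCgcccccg
SLC2A1 (chr1:42958819-42959118, minus strand): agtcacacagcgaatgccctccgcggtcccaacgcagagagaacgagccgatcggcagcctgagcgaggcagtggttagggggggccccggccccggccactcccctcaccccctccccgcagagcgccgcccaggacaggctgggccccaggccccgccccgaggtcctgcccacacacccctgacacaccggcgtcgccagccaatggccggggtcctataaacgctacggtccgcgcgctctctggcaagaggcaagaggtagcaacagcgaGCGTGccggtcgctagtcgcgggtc
PFKFB4 (chr3:48556754-48557053, minus strand): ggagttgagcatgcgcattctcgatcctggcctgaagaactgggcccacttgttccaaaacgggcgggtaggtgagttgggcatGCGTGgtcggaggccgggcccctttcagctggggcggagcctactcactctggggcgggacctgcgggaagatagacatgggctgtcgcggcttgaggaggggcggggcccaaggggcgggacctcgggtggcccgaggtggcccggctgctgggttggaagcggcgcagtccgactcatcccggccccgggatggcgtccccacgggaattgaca

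A match of these letters is a description of the window. LDHA held 5 matches of ACGTG and 1 of GCGTG, and ANKRD37 held 3 of ACGTG. P4HA1 and CA9 held 1 ACGTG each, and SLC2A1 and PFKFB4 held 1 GCGTG each. CA9 had at most 0.796 CPM in a library and P4HA1 at least 252 CPM, with 1 match of the same letters each. Whether the number of matches goes with level was not tested over the genes.

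The shallowest library, the dCas9 one numbered 3, held 2442960 counts, and the deepest, dCas9-p300 core replicate 2, held 5154627. The targeted gene IL1RN, the check of the transfections, had 278, 455 and 339 counts with dCas9-p300 core, 95, 76 and 123 with dCas9-VP64, 24, 26 and 35 with dCas9-p300 D1399Y, and 15, 28 and 25 with dCas9. EP300, which the p300 plasmids can also feed, had 1335 to 1757 counts in the 6 p300 libraries and 140 to 609 in the others. Of 9 genes fixed as markers of HEK293T, 8 had counts in all 12 libraries, with sums of 591 to 857 CPM. Marker lists for blood, endothelium, fibroblast and keratinocyte summed to at most 31.1 CPM in any library, and CD3E, HBB, KRT5 and KRT14 were at 0 throughout.

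None of the 36 genes passed the test in any of the 5 comparisons between proteins (edgeR, adjusted p of 0.05, counts by comparison given with each). The library with the highest level of both target lists was a dCas9 one. In dCas9 replicate 1 the other targets lay a median of 0.58 above their own means on the log2 scale and the glycolysis genes 0.40 above theirs.

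**Figure D1:**
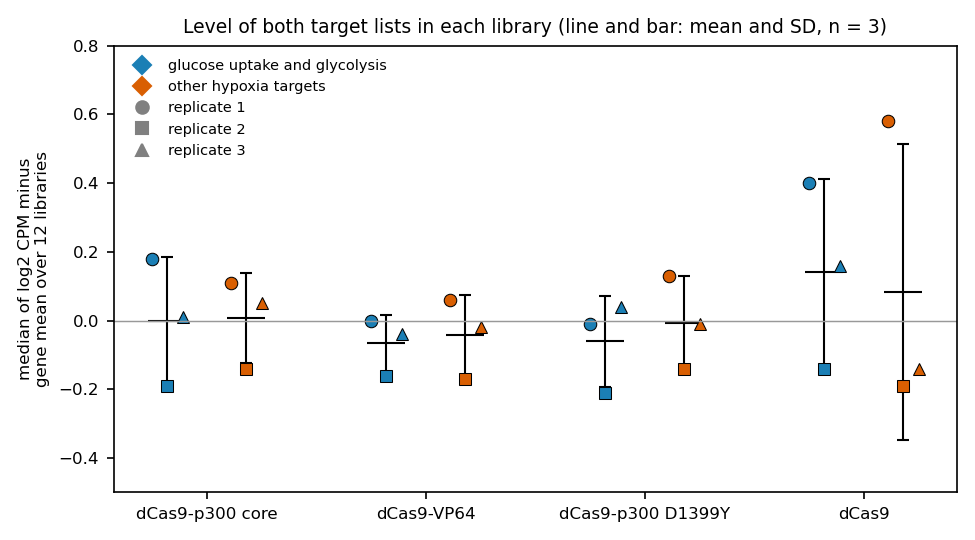
Median deviation of each target list in each library: the y axis is log2 CPM minus the gene's mean over 12 libraries, the median over 18 glycolysis genes (blue) or 12 other hypoxia targets (orange); symbols mark replicates 1 to 3, lines and bars the mean and SD of a group. The dCas9 replicate 1 circles stand at 0.40 and 0.58, above all other points, and the replicate 2 squares lie between -0.21 and -0.14.

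The list level of a library was the median, over tested genes, of log2 CPM (CPM is the count relative to the TMM-scaled library size) minus the gene's mean over 12 libraries. For the glycolysis genes it was 0.18, -0.19 and 0.01 in dCas9-p300 core replicates 1 to 3, 0.00, -0.16 and -0.04 with dCas9-VP64, -0.01, -0.21 and 0.04 with dCas9-p300 D1399Y, and 0.40, -0.14 and 0.16 with dCas9. For the other targets it was 0.11, -0.14 and 0.05 with dCas9-p300 core, 0.06, -0.17 and -0.02 with dCas9-VP64, 0.13, -0.14 and -0.01 with dCas9-p300 D1399Y, and 0.58, -0.19 and -0.14 with dCas9. All 4 groups overlapped on both lists.

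The glycolysis level minus that of the other targets averaged -0.01 ± 0.07 with dCas9-p300 core, -0.02 ± 0.04 with dCas9-VP64, -0.06 ± 0.09 with dCas9-p300 D1399Y and 0.05 ± 0.24 with dCas9 (SD, n = 3 each). Its extremes were both in the dCas9 group, at -0.19 in replicate 1 and 0.30 in replicate 3, and the other 10 libraries lay between -0.14 and 0.07. After offsets for transcript length and GC content these became -0.18 and 0.13. The median over all genes tested stayed between -0.02 and 0.03 in every library.

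In dCas9 replicate 1, 24 of the 36 tested genes had their highest level of the 12 libraries (3 of 6 regulators, 9 of 12 other targets and 12 of 18 glycolysis genes), against 10.6% of all genes tested. Of a further list of 29 tested HIF pathway genes, 8 were highest there, of 26 further glucose genes 2 were, and of 13 stress genes 6 were. The stress list had a median deviation of 0.17 there and 0.27 in dCas9 replicate 3, and between -0.29 and 0.07 in the other 10 libraries; its part in the levels of the targets was not tested. Its total count of 3633590 lay inside the range of the other libraries. Over 13778 genes its deviations had a correlation of -0.03 with GC content and -0.02 with log2 length, and the 2 list levels were 0.40 and 0.59 after length and GC offsets.

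**Figure D2:**
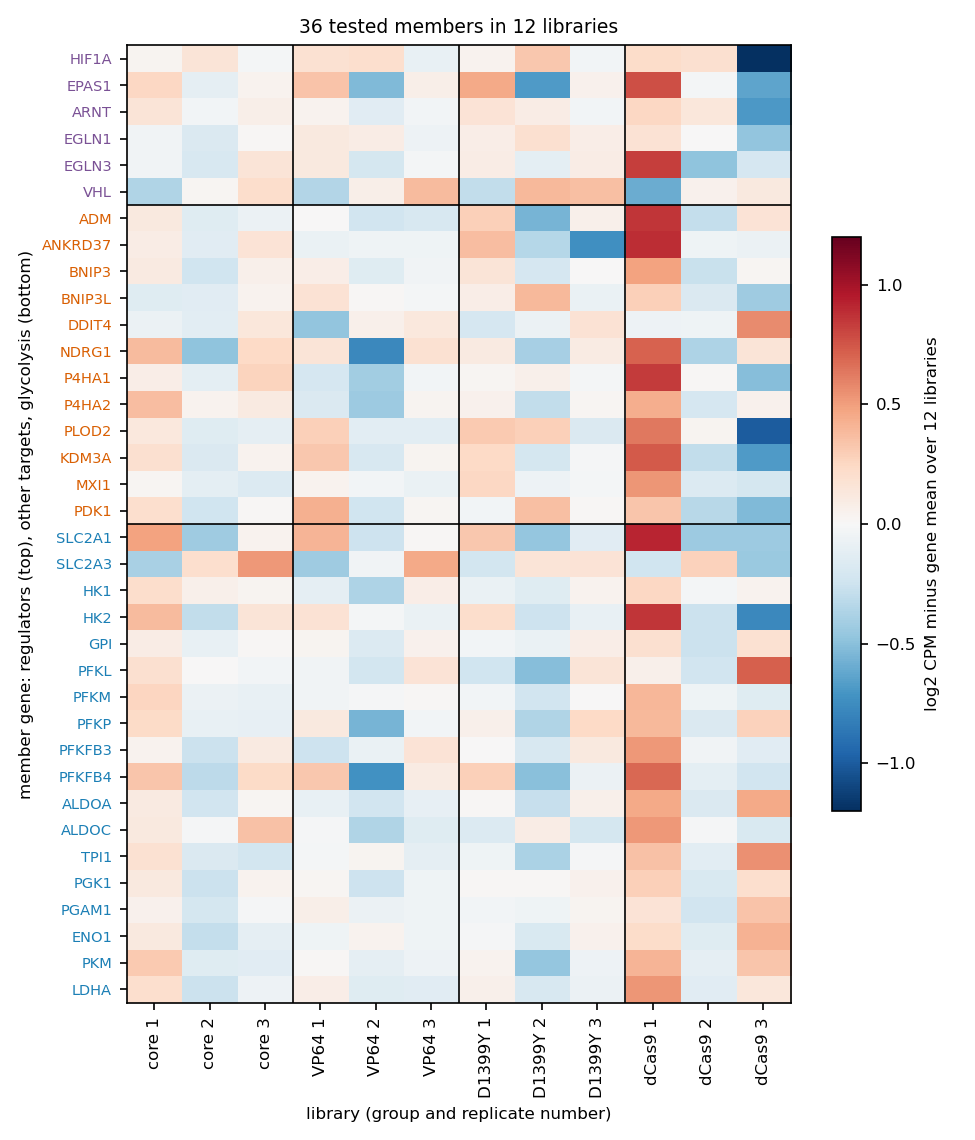
Heat map of 36 tested genes (rows: regulators on top, other targets, glycolysis genes at the bottom) in 12 libraries (columns, by group and replicate); colour is log2 CPM minus the gene's mean over 12 libraries, red above and blue below. The dCas9 replicate 1 column is red for most targets, and the dCas9 replicate 3 column is blue for HIF1A, PLOD2, HK2 and ARNT and red for PFKL, DDIT4, TPI1 and ALDOA.

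Among the 6 regulators, 0 passed the edgeR test in any comparison. HIF1A, ARNT and EGLN1 had their lowest value in dCas9 replicate 3. HIF1A, the oxygen-labile subunit, had 195, 212 and 188 CPM in dCas9-p300 core libraries, 216, 220.1 and 179.5 CPM with dCas9-VP64, 197, 238 and 187 CPM with dCas9-p300 D1399Y, and 223, 218 and 82.8 CPM with dCas9. A single library, dCas9 replicate 3, was low, and the other 11 lay between 179.5 and 238 CPM. The log2 fold change was 0.18 ± 0.26 for dCas9-p300 core against dCas9 (standard error, edgeR adjusted p = 0.884).

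EPAS1, the other alpha subunit, had 44.0, 34.0 and 37.9 CPM in dCas9-p300 core libraries, 46.6, 25.2 and 38.6 CPM with dCas9-VP64, 50.5, 22.9 and 38.2 CPM with dCas9-p300 D1399Y, and 63.1, 36.3 and 23.6 CPM with dCas9. In each group the library numbered 1 was the highest, and all groups overlapped. ARNT, the constant partner, had 235, 206.5 and 222 CPM in dCas9-p300 core libraries, 217, 192 and 207 CPM with dCas9-VP64, 236, 225 and 206 CPM with dCas9-p300 D1399Y, and 251, 232 and 131 CPM with dCas9. Its lowest value was again in dCas9 replicate 3. For dCas9-p300 core against dCas9 the log2 fold change was -0.10 ± 0.33 for EPAS1 and 0.11 ± 0.18 for ARNT (standard errors, edgeR adjusted p = 0.951 and 0.895).

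EGLN1, the main prolyl hydroxylase of HIF, had 135, 124 and 140.2 CPM in dCas9-p300 core libraries, 152, 149 and 134 CPM with dCas9-VP64, 148, 159 and 147 CPM with dCas9-p300 D1399Y, and 157, 139.6 and 101 CPM with dCas9. All 3 core libraries lay below all 3 D1399Y libraries, with a log2 fold change of -0.18 ± 0.15 (standard error) and an edgeR adjusted p of 1. It was the single gene of the 36 whose groups did not overlap in that comparison, where 9.95% of all genes tested did not overlap.

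EGLN3, a hydroxylase that is itself a HIF target, had 21.1, 18.9 and 24.1 CPM in dCas9-p300 core libraries, 23.6, 18.6 and 21.3 CPM with dCas9-VP64, 23.1, 19.965 and 23.1 CPM with dCas9-p300 D1399Y, and 38.8, 15.4 and 18.9 CPM with dCas9. The dCas9 group held both the highest and the lowest of the 12 values. VHL, the ligase subunit that recognises hydroxylated HIF alpha, had 109, 142 and 162 CPM in dCas9-p300 core libraries, 109.9, 147 and 183 CPM with dCas9-VP64, 114, 184 and 179.6 CPM with dCas9-p300 D1399Y, and 92.5, 146 and 152 CPM with dCas9. In every group the library numbered 1 was the lowest, which held for 1 of the 36 genes and 3.94% of all genes tested. The same comparison gave -0.19 ± 0.27 for EGLN3 and 0.08 ± 0.25 for VHL (log2 fold change of dCas9-p300 core over dCas9, standard errors, edgeR adjusted p = 0.883 and 0.945).

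The other targets covered collagen modification, mitochondrial turnover, chromatin and signalling, and none of the 12 tested passed the edgeR test. Mean CPM, not corrected for length, ran from 3.59 to 368. P4HA1, a collagen prolyl hydroxylase subunit, had 379, 329 and 433 CPM in dCas9-p300 core libraries, 312, 268 and 351 CPM with dCas9-VP64, 364, 374 and 354 CPM with dCas9-p300 D1399Y, and 640.45, 361 and 252 CPM with dCas9. The highest and the lowest library were both dCas9. For dCas9-VP64 against dCas9 its log2 fold change was -0.43 ± 0.24 (standard error, edgeR adjusted p = 0.929), and -0.02 without dCas9 replicate 1.

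PLOD2, a collagen lysyl hydroxylase, had 285, 235 and 241 CPM in dCas9-p300 core libraries, 319, 237 and 238 CPM with dCas9-VP64, 322.5, 318 and 232 CPM with dCas9-p300 D1399Y, and 404, 265 and 130.0 CPM with dCas9. KDM3A, a histone H3 lysine 9 demethylase, had 203, 159 and 184 CPM in dCas9-p300 core libraries, 223, 156 and 182 CPM with dCas9-VP64, 212, 155 and 178 CPM with dCas9-p300 D1399Y, and 299, 145 and 111 CPM with dCas9. Both genes had their highest value in dCas9 replicate 1 and their lowest in dCas9 replicate 3, and library 1 was the highest of each group. Their log2 fold changes for dCas9-p300 core against dCas9 were -0.07 ± 0.29 and -0.02 ± 0.28 (PLOD2, then KDM3A, standard errors, edgeR adjusted p = 0.958 and 0.989).

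P4HA2, the paralog of P4HA1, had 84.9, 67.4 and 71.1 CPM in dCas9-p300 core libraries, 58.5, 48.5 and 67.3 CPM with dCas9-VP64, 67.9, 53.2 and 66.8 CPM with dCas9-p300 D1399Y, and 89.1, 57.0 and 67.9 CPM with dCas9. The core libraries lay just above all dCas9-VP64 libraries, with a log2 fold change of 0.36 ± 0.18 (standard error, edgeR adjusted p = 1). In that comparison 2 of the 36 genes did not overlap, P4HA2 and the aldolase ALDOC, against 10.3% of all genes tested.

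ADM, which encodes the vasodilator peptide adrenomedullin, had 10.5, 8.68 and 9.15 CPM in dCas9-p300 core libraries, 9.67, 8.16 and 8.38 CPM with dCas9-VP64, 11.9, 6.37 and 10.1 CPM with dCas9-p300 D1399Y, and 17.99, 7.83 and 10.9 CPM with dCas9. ANKRD37, a small ankyrin repeat protein, had 14, 16 and 15 counts with dCas9-p300 core, 13 in each dCas9-VP64 library, 17, 9 and 7 with dCas9-p300 D1399Y, and 24, 14 and 9 with dCas9. ADM had a log2 fold change of -0.48 ± 0.30 for dCas9-VP64 against dCas9 (standard error, edgeR adjusted p = 0.929). Both were highest in dCas9 replicate 1, at low counts; ANKRD37 was chosen after its values were seen. CA9, the carbonic anhydrase often read as a mark of hypoxia, had 0, 0 and 3 counts with dCas9-p300 core, 1, 0 and 2 with dCas9-VP64, 1, 0 and 3 with dCas9-p300 D1399Y, and 1, 0 and 1 with dCas9, so no difference was detectable at this depth.

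The remaining other targets are BNIP3 and BNIP3L, receptors for the removal of mitochondria; DDIT4, an inhibitor of mTOR signalling; NDRG1; MXI1, a partner of MAX that opposes MYC; and PDK1, which holds pyruvate back from the mitochondrion. Their mean CPM ran from 99.7 to 159.5. BNIP3, NDRG1 and MXI1 peaked in dCas9 replicate 1, BNIP3L in dCas9-p300 D1399Y replicate 2 and PDK1 in dCas9-VP64 replicate 1. DDIT4 peaked in dCas9 replicate 3 at 234 CPM, where BNIP3L, MXI1 and PDK1 had their lowest values.

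Among the 18 glycolysis genes, 17 lay lower with dCas9-VP64 than with dCas9, 15 with dCas9-p300 core and 17 with dCas9-p300 D1399Y, by fitted log2 fold change, and none passed the edgeR test. Of all 14613 genes tested, 7179, 6941 and 7281 lay lower, in the same order. These comparisons share the 3 dCas9 libraries, whose glycolysis levels were 0.40, -0.14 and 0.16 in replicates 1 to 3. PKM, the pyruvate kinase of the last step, had 1039.7, 759 and 764 CPM in dCas9-p300 core libraries, 846, 779 and 806 CPM with dCas9-VP64, 862, 609.9 and 804 CPM with dCas9-p300 D1399Y, and 1118, 781 and 1060.1 CPM with dCas9. For D1399Y against dCas9 its log2 fold change was -0.39 ± 0.17 (standard error, edgeR adjusted p = 0.633), and -0.23 after length and GC offsets.

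LDHA, which makes lactate from pyruvate, had 919, 669 and 766 CPM in dCas9-p300 core libraries, 849, 722 and 726 CPM with dCas9-VP64, 836, 704 and 766 CPM with dCas9-p300 D1399Y, and 1158, 728 and 881 CPM with dCas9. ALDOA, the main aldolase, had 434, 342 and 407 CPM in dCas9-p300 core libraries, 377, 342 and 374 CPM with dCas9-VP64, 404, 331 and 419 CPM with dCas9-p300 D1399Y, and 548, 358 and 551 CPM with dCas9. In both genes dCas9 replicate 2 fell among the other groups and dCas9 replicate 1 stood above all of them. LDHA had a log2 fold change of -0.24 ± 0.16 for dCas9-p300 core against dCas9 (standard error, edgeR adjusted p = 0.879). ALDOA had the smallest unadjusted p of the 36 genes, 0.0238, for dCas9-VP64 against dCas9 (log2 fold change -0.42 ± 0.17, edgeR adjusted p = 0.929), and its log2 fold change was -0.26 after length and GC offsets.

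TPI1, triosephosphate isomerase, had 294, 231 and 224 CPM in dCas9-p300 core libraries, 256, 265 and 241 CPM with dCas9-VP64, 251, 201 and 258 CPM with dCas9-p300 D1399Y, and 331.5, 238 and 380.5 CPM with dCas9. Its highest library was dCas9 replicate 3, followed by dCas9 replicate 1. For D1399Y against dCas9 the log2 fold change was -0.43 ± 0.17 (standard error, edgeR adjusted p = 0.633). It was -0.16 after length and GC offsets. For dCas9-p300 core against dCas9 the log2 fold change of TPI1 was -0.35. It was -0.18 without dCas9 replicate 3 and -0.34 without dCas9 replicate 1. For dCas9-VP64 against dCas9 it was -0.33, with -0.16 and -0.32 when the same libraries were left out. TPI1, PKM, ALDOA and LDHA were each lower with D1399Y than with dCas9 in all 3 pairs of libraries with the same number, although the groups overlapped. These genes were named for their high level or small p in these data. The share of all genes tested with the same order was not counted, so no conclusion is drawn from it.

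The other glycolysis genes are the glucose transporters SLC2A1 and SLC2A3, the hexokinases HK1 and HK2, the isomerase GPI, the phosphofructokinases PFKL, PFKM and PFKP, the regulators of that step PFKFB3 and PFKFB4, ALDOC, PGK1, PGAM1 and ENO1. Their mean CPM, not corrected for length, ran from 20.1 to 406. Of these 14 genes, 10 peaked in dCas9 replicate 1, and PFKL, PGAM1 and ENO1 peaked in dCas9 replicate 3. SLC2A3 peaked in dCas9-p300 core replicate 3, at 43.2 CPM, and was lowest in dCas9 replicate 3, at 21.8 CPM.

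**Figure D3:**
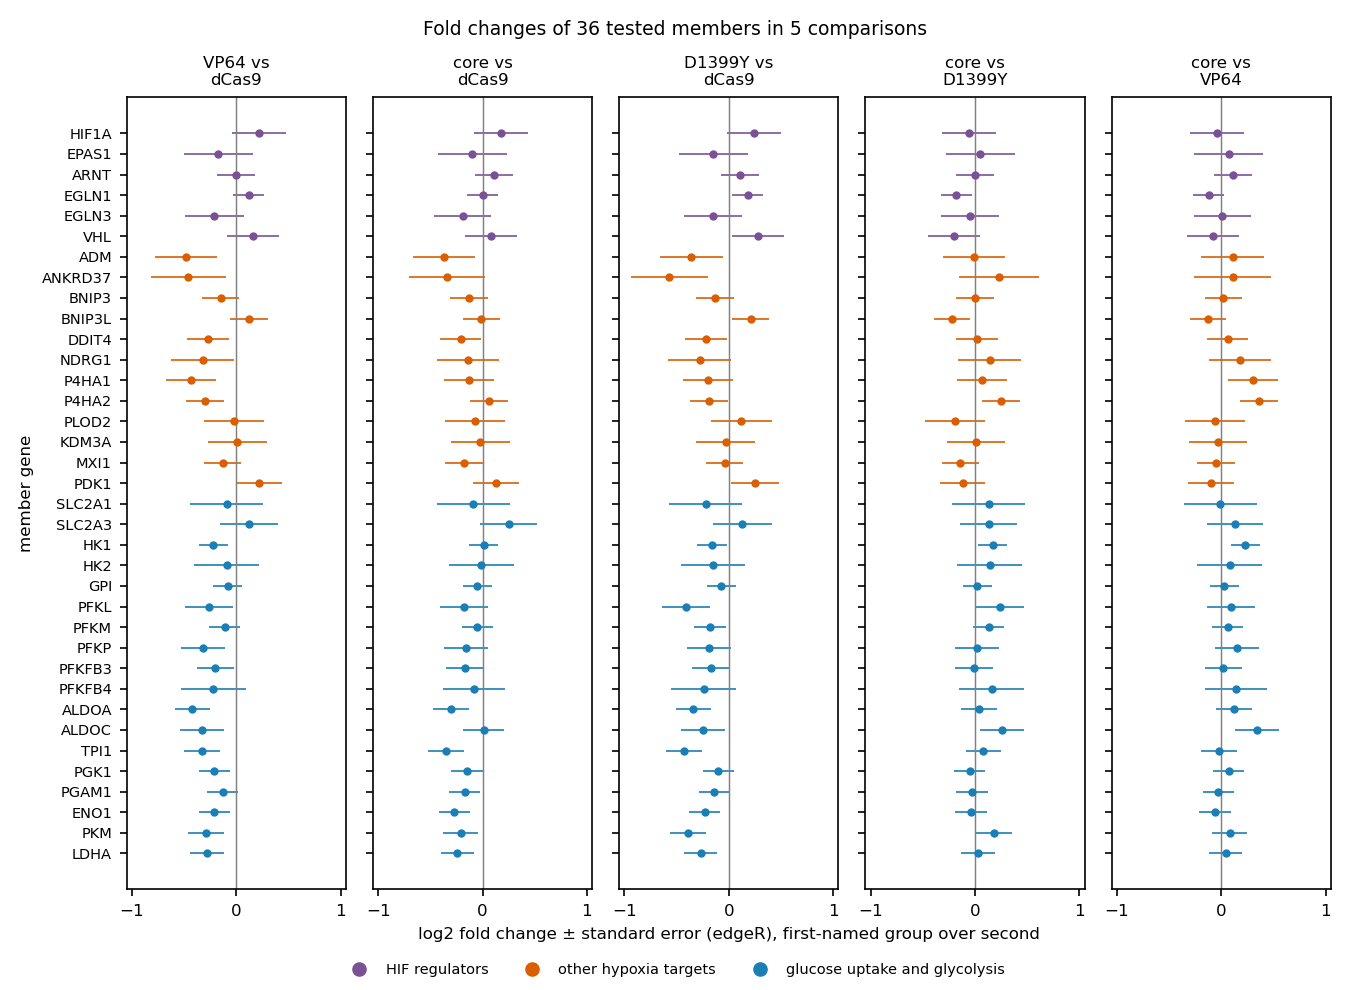
Log2 fold changes with standard errors (edgeR, x axes) of 36 genes (rows) in 5 comparisons (panels), first-named group over second; purple, regulators, orange, other targets, blue, glycolysis genes. All values lie between -0.57 and 0.36, and most blue points are left of 0 in the panels against dCas9.

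With dCas9-VP64 against dCas9, 0 of the 36 genes passed at an adjusted p of 0.05 with edgeR, DESeq2 or limma-voom, and 1 had an unadjusted edgeR p under 0.05; 0% of 14613 genes passed with edgeR. Over all genes 449 had an unadjusted edgeR p under 0.05, and DESeq2 passed 1 and limma-voom 0. The median log2 fold change was -0.22 over the glycolysis genes and -0.21 over the other targets, beside 0.00 over all genes. No gene of the 36 had groups that did not overlap, against 6.02% of all genes tested. Without dCas9 replicate 1 the medians were -0.13 and 0.02.

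With dCas9-p300 core against dCas9, 0 of 36 passed with any of the 3 tools and 0 had an unadjusted edgeR p under 0.05, against 0.00684% of all genes passing, which was IL1RN alone. Over all genes 454 had an unadjusted edgeR p under 0.05, and DESeq2 passed 4 and limma-voom 2. The medians were -0.16 over the glycolysis genes and -0.13 over the other targets, beside 0.02 over all genes, and no group pair was free of overlap among the 36 (6.91% of all genes tested). Without dCas9 replicate 1 the medians were -0.04 and 0.16. Individual fold changes lay between 0.774 and 1.19.

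With dCas9-p300 D1399Y against dCas9, 0 of 36 passed with any of the 3 tools and 2, TPI1 and PKM, had an unadjusted edgeR p under 0.05; 0% of all genes passed. Over all genes 861 had an unadjusted edgeR p under 0.05, and DESeq2 and limma-voom passed 1 each. The medians were -0.21 over the glycolysis genes and -0.16 over the other targets, beside 0.00 over all genes, and all 36 genes overlapped (7.06% of all genes tested did not). Without dCas9 replicate 1 the medians were -0.07 and 0.15.

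The 2 comparisons that leave out the dCas9 libraries gave values nearer to 0. For dCas9-p300 core against dCas9-p300 D1399Y, 0 of 36 passed with any of the 3 tools and 0 had an unadjusted edgeR p under 0.05 (0.00684% of all genes passed); the glycolysis median was 0.10, with 14 of 18 genes above 0, and that of the other targets was 0.00, with 6 of 12 above 0. Without dCas9-p300 core replicate 1 the glycolysis median was -0.03, and without dCas9-p300 D1399Y replicate 2 it was -0.02. Over all genes 272 had an unadjusted edgeR p under 0.05 in this comparison, and DESeq2 passed 3 and limma-voom 1. For dCas9-p300 core against dCas9-VP64, 0 of 36 passed with any of the 3 tools and 0 had an unadjusted edgeR p under 0.05 (0.00684% of all genes passed); the medians were 0.07 and 0.04, and -0.01 and -0.02 without dCas9-p300 core replicate 1. Over all genes 309 had an unadjusted edgeR p under 0.05 here, and DESeq2 passed 5 and limma-voom 1. Standard errors over the 36 genes and 5 comparisons ran from 0.14 to 0.38 on the log2 scale.

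Replicate 3 of both p300 groups carries another pool name, CV42, than the other 10 libraries. With the CV41 libraries alone the glycolysis and other target medians were -0.14 and -0.16 for dCas9-p300 core against dCas9, and 0.09 and -0.05 for dCas9-p300 core against dCas9-p300 D1399Y. The CV42 pool holds no dCas9 or dCas9-VP64 library and gives no value of its own. In bulk RNA a change in the share of cells and a change of RNA per cell cannot be told apart.

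The dCas9 group was the most spread for 30 of the 36 genes by the range of log2 CPM, as it was for 62.3% of all genes tested. Its replicate 3, the shallowest library, was highest for 6 of the 36 (29.1% of all genes tested) and lowest for 11 of the 36 (34.3% of all genes tested). In that library the deviations of the 36 genes had a correlation of 0.69 with GC content and -0.62 with log2 length, and over 13778 genes of 0.50 and -0.56. The median GC content was 46.8% for the regulators, 44.3% for the other targets and 55.7% for the glycolysis genes. With length and GC offsets the regulator level of dCas9 replicate 3 was -0.11, against -0.55 without them, and its glycolysis level was 0.03, against 0.16.

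**Figure D4:**
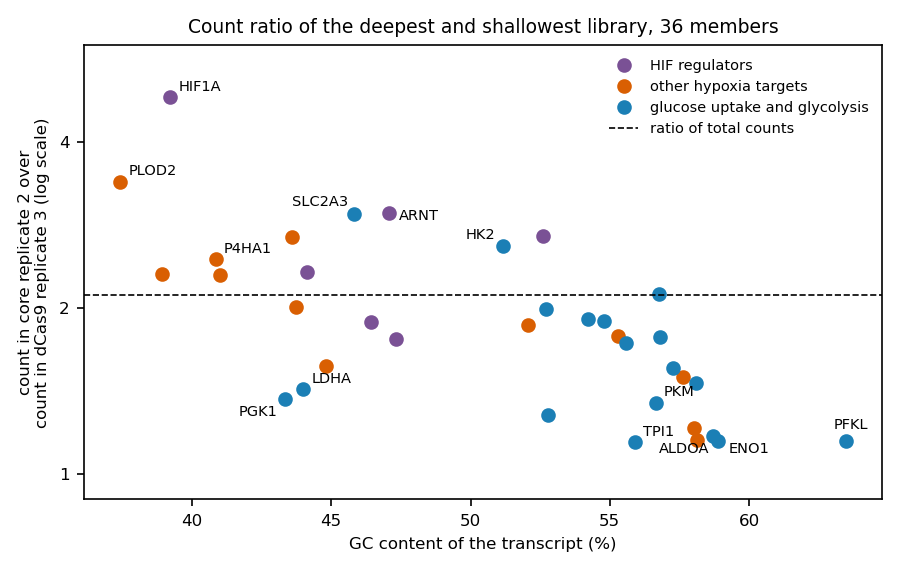
Count in dCas9-p300 core replicate 2 over count in dCas9 replicate 3 (y axis, log scale) against GC content of the transcript (x axis, percent) for 36 genes, coloured by list; the dashed line is the ratio of total counts, 2.11. HIF1A stands highest at 4.83, and TPI1, ENO1, PFKL and DDIT4 lie near 1.15.

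Between the deepest and the shallowest library, the median count ratio of the glycolysis genes was below the ratio of total counts. Total counts of dCas9-p300 core replicate 2 were 2.11 times those of dCas9 replicate 3, while the ratio of counts had a median of 2.52 over the regulators, 1.94 over the other targets and 1.51 over the glycolysis genes. It was 4.83 for HIF1A, 1.35 for PKM, 1.43 for LDHA and 1.15 for ENO1. Of the 18 glycolysis genes, SLC2A3 at 2.97, HK2 at 2.60 and ALDOC at 2.125 lay above the ratio of total counts. PKM and LDHA ranked 15 and 21 of 22717 features by mean count per base. ENO1 had 1705 counts and 329 CPM in dCas9-p300 core replicate 2, against 1484 counts and 539 CPM in dCas9 replicate 3. GAPDH, on the further glucose list, ran from 1260 to 1529 counts over all libraries. Where counts follow total counts this little, CPM comes out higher in the shallow library, and fold changes against dCas9 include that library. What part GC content, length and abundance each have in these ratios was not tested.

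The counts were listed by transcript and summed per gene. The 7 PKM transcripts averaged 402 to 520 counts each and the 6 LDHA transcripts 443 to 576, so the forms of PKM were not told apart here, and the sum over a gene's transcripts depends on how many are listed. PGAM1 has a near-identical copy, PGAM4, which was listed with 137 to 184 counts in each library, so the split of reads between them is uncertain.

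For part of the 36 genes, level went with the replicate number that the labels give. In 12 of the 36 genes the library numbered 1 was the highest of its group in 4 of 4 groups (2 of 6 regulators, 5 of 12 other targets, 5 of 18 glycolysis genes), against 4.67% of all genes tested. The 12 are EPAS1, ARNT, ADM, BNIP3, PLOD2, KDM3A, MXI1, SLC2A1, HK2, PFKFB4, PKM and LDHA. The library numbered 1 was the lowest in 4 of 4 groups for VHL and in 3 groups for DDIT4 and SLC2A3. The count of 12 also uses dCas9 replicate 1, the peak library of 24 of the 36 genes. The labels do not say what the number stands for, and the order by number was noticed in these values and is given with no test.

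SLC2A1, PFKFB4 and NDRG1 are given as examples chosen after their values were seen, and NDRG1 is not among the 12. SLC2A1, the main glucose transporter of many cell lines, had 72.7, 38.4 and 53.4 CPM in dCas9-p300 core libraries, 69.2, 43.6 and 52.3 CPM with dCas9-VP64, 64.9, 37.6 and 47.2 CPM with dCas9-p300 D1399Y, and 98.2, 38.2 and 38.1 CPM with dCas9. PFKFB4 had 46.6, 29.7 and 43.4 CPM in dCas9-p300 core libraries, 46.4, 22.2 and 39.6 CPM with dCas9-VP64, 45.3, 26.0 and 35.3 CPM with dCas9-p300 D1399Y, and 60.2, 33.9 and 31.6 CPM with dCas9. All libraries numbered 1 stood above all numbered 2 in both genes. NDRG1 had 199, 110.0 and 181 CPM in dCas9-p300 core libraries, 170.1, 89.8 and 174 CPM with dCas9-VP64, 166, 116 and 164 CPM with dCas9-p300 D1399Y, and 252, 119 and 171 CPM with dCas9. Its libraries numbered 2 were the lowest of each group, and library 1 was above library 2 in all 4.

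**Figure D5:**
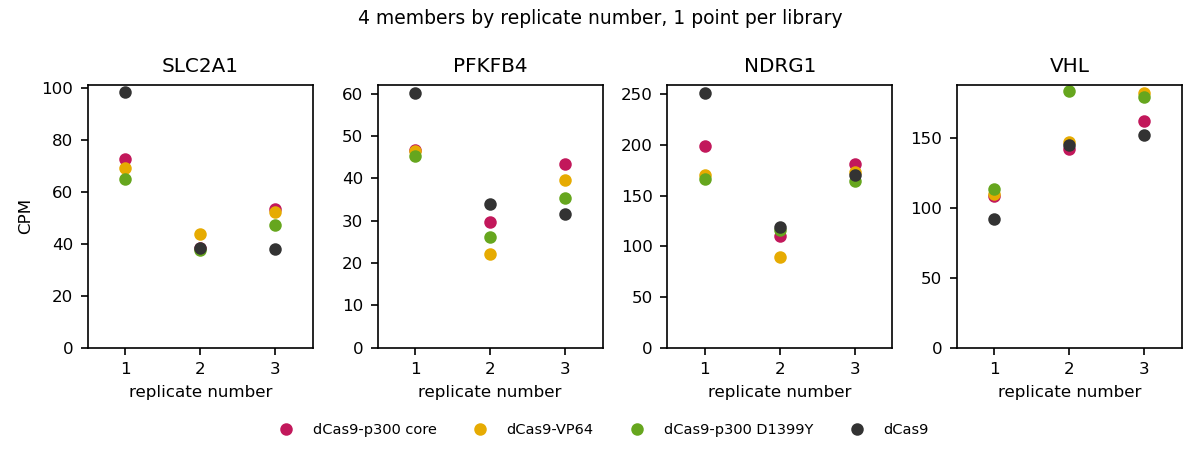
CPM (y axes, from 0) of 4 genes in 12 libraries by the replicate number of the labels (x axes), 1 point per library, coloured by group. The points numbered 1 lie above those numbered 2 for SLC2A1, PFKFB4 and NDRG1 and below them for VHL, in all 4 groups.

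Of 29 further HIF pathway genes tested (32 on the list), 0 passed the edgeR test in any comparison, and at most 2 in a comparison had an unadjusted p under 0.05. CITED2, which competes with HIF alpha for p300, averaged 68.4 ± 5.26 CPM in dCas9-p300 core libraries, against 96.7 ± 40.9 CPM in dCas9 libraries (SD, n = 3 each; log2 fold change -0.50 ± 0.22, edgeR adjusted p = 0.879). Its log2 fold change against the same dCas9 libraries was -0.53 ± 0.22 with dCas9-VP64 and -0.42 ± 0.22 with dCas9-p300 D1399Y (edgeR adjusted p = 0.929 and 0.633). It had 144 CPM in dCas9 replicate 1, and 60.2 to 84.2 CPM in the other 11 libraries. EGLN2, the third HIF prolyl hydroxylase, averaged 16.5 ± 4.71 CPM with dCas9-p300 D1399Y and 26.7 ± 8.39 CPM with dCas9 (log2 fold change -0.69 ± 0.27, edgeR adjusted p = 0.633). Its dCas9 values were 22.8, 20.9 and 36.3 CPM in replicates 1 to 3. With dCas9-p300 core the log2 fold change of EGLN2 over dCas9 was -0.52 ± 0.26 (edgeR adjusted p = 0.879). It was -0.20 ± 0.26 with dCas9-VP64 (edgeR adjusted p = 0.929). WSB1, a ubiquitin ligase subunit, averaged 109 ± 23.4 CPM with dCas9-VP64 and 77.0 ± 11.6 CPM with dCas9 (log2 fold change 0.50 ± 0.19, edgeR adjusted p = 0.929).

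Of 26 further glucose genes tested (29 on the list), 0 passed the edgeR test in any comparison, and at most 1 in a comparison had an unadjusted p under 0.05. PDP2, a phosphatase that activates pyruvate dehydrogenase, averaged 80.1 ± 6.63 CPM with dCas9-VP64 and 61.2 ± 9.10 CPM with dCas9 (log2 fold change 0.38 ± 0.16, edgeR adjusted p = 0.929). With dCas9-p300 D1399Y its log2 fold change over dCas9 was 0.37 ± 0.16 (edgeR adjusted p = 0.633). With dCas9-p300 core it was 0.14 ± 0.16 (edgeR adjusted p = 0.879). TKT, a transketolase, averaged 259 ± 27.2 CPM with dCas9-VP64 and 320.2 ± 48.6 CPM with dCas9 (log2 fold change -0.31 ± 0.16, edgeR adjusted p = 0.929). With dCas9-p300 D1399Y its log2 fold change over dCas9 was -0.27 ± 0.16 (edgeR adjusted p = 0.633). With dCas9-p300 core it was -0.15 ± 0.16 (edgeR adjusted p = 0.879).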

How the data were processed

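Per the submitters' processing notes, the build was hg19 and the tools include Bowtie2, CASAVA, DESeq2 1.6.2, R 3.1.2 and SAMtools, with no role stated. The authors deposited raw counts for 40709 RefSeq transcripts per library. How duplicate and multiply mapped reads were treated: not given in the sources used here. Transcripts were named with RefSeq and GENCODE tables, and 869 of them, with 1.07% of reads, kept their identifier. Counts were summed per gene, which treats isoforms as one. Tests used edgeR 4.0.16 (R 4.3.3): TMM factors, filterByExpr, a quasi-likelihood fit of 4 group means over 12 libraries, two-sided, Benjamini-Hochberg over 14613 genes, threshold 0.05. Errors beside log2 fold changes are standard errors. Total counts of 2442960 to 5154627 set the precision, and with 3 libraries a group, p-values measure the spread between these libraries, which may be technical. The genes and lists were chosen with earlier results of these data known. The text names all 37 genes, with per-library values for the regulators, the 3 most abundant and the 3 of smallest p in each other list, and CA9, and group means for the 3 of smallest p in both further lists, of which 1 is not reported here. Alternatives tried were DESeq2 1.42.0, limma-voom (limma 3.58.1), upper-quartile or RLE factors, other filters, replicate block, compared groups alone, pool terms, highest transcript, length and GC offsets (lengths for 94.3% of tested genes) and leaving out each library. The tests were checked on simulated counts that held no effect of GC content, length or replicate number. That check cannot show how the tests perform on these libraries. Figures used Python 3.11.15.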

Additional observations from a re-analysis of the deposited data

How the results depend on the processing

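No gene of the 36 passed the adjusted threshold in any of 5 comparisons under 25 alternatives each. Leaving out 1 library at a time, the median log2 fold change of the other targets ran from -0.26 to 0.16 for dCas9-p300 core against dCas9 and from -0.29 to 0.15 for dCas9-p300 D1399Y against dCas9, with the upper end in both without dCas9 replicate 1, so their sign rests on that library; the cause was not tested. It ran from -0.34 to 0.02 for dCas9-VP64 against dCas9. The glycolysis medians stayed below 0 in these comparisons, within -0.35 to -0.04, and those of the comparisons without dCas9 moved by less than the spread between libraries. With upper-quartile factors the level of the other targets in dCas9 replicate 3 was 0.00, against -0.14, and with that scaling the median of all genes there was 0.13.

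The replicate numbers were checked for pairing, with each gene's log2 CPM taken minus its mean over the 3 libraries of the same group. On this measure 14 of 18 same-numbered pairs of libraries had a correlation over 0.1, with a range of -0.175 to 0.498. For pairs with different numbers the range was -0.44 to 0.24. Taking off the group mean ties these correlations together, so the pairs with different numbers are not an independent reference. All 3 pairs were over 0.1 for dCas9-p300 D1399Y against dCas9 (0.237, 0.485 and 0.498) and for dCas9-p300 core against dCas9-VP64 (0.276, 0.25 and 0.36), so the numbers may pair the libraries there, and at least 1 pair was below 0.1 in each of the other 3 comparisons. With the replicate block 0 of the 36 genes passed in each comparison, and the glycolysis median was -0.13 for dCas9-p300 core against dCas9 and -0.18 for dCas9-p300 D1399Y against dCas9. In the second of these TPI1, PKM and ALDOA had log2 fold changes of -0.42, -0.39 and -0.33 with the block (edgeR adjusted p = 0.448 for each). Over all genes tested, the number that passed ran from 0 to 1 for dCas9-VP64 against dCas9, 1 to 4 for dCas9-p300 core against dCas9, 0 to 1 for dCas9-p300 D1399Y against dCas9, 1 to 5 for dCas9-p300 core against dCas9-p300 D1399Y and 0 to 6 for dCas9-p300 core against dCas9-VP64. The length and GC offsets with the replicate block, added after the data were seen, also gave 0 genes. Low counts limit CA9 and ANKRD37 most. With 3 libraries a group and standard errors up to 0.38, small changes were undetectable, and larger ones also missed the threshold. EP300 had a log2 fold change of 1.86 for dCas9-p300 core against dCas9 (edgeR adjusted p = 0.052). IL1RN had 1.9 for dCas9-VP64 against dCas9 (edgeR adjusted p = 0.0749). It passed at 1.76 for dCas9-p300 core against dCas9-VP64 (edgeR adjusted p = 0.0215). Counts of some abundant glycolysis genes followed total counts little between the deepest and shallowest library, a further limit.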
